A study of Homo sapiens with 12 samples.

Results

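This account describes which messenger RNAs were ribosome-rich and which were ribosome-poor in 22Rv1 prostate cancer xenografts that received only vehicle. It rests on 3 ribosome footprint libraries and 3 RNA libraries, 6 of the 12 libraries in the series, with footprints and RNA of one replicate number treated as one tumour. A transcript was included when its mean over the 3 vehicle libraries was at least 20 counts in footprints and also in RNA, which left 8085 of the 19037 transcripts present in both count tables. The other 6 libraries, from treated tumours, entered no fit.

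22Rv1 is an established human prostate carcinoma line. Cells were placed under the skin of the flank of male NSG mice aged 6 to 8 weeks, a strain that lacks mature T, B and NK cells but keeps its own fibroblasts, vessels, muscle and myeloid cells. Mice entered the study at a tumour volume of 70 to 100 mm3, and vehicle was 5% dextrose given into the peritoneum. Tumours were taken 6 hours later and frozen. The xenografts derive from 1 cell line, and the labels call the replicates biological without saying whether each was a separate mouse. A treatment field in the labels names zotatifin for all footprint libraries, these 3 included, and no treatment for all RNA libraries. Groups here follow the sample titles, which match the column names of the tables.

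Ribosome profiling digests the RNA that ribosomes do not cover and sequences the protected fragments, here those of 24 to 34 nucleotides from the monosome fractions of a gradient. Dividing the footprints of a transcript by its RNA gives a measure often called translational efficiency. Counts were not divided by length, so it reflects how densely ribosomes sit on the RNA and not how many sit on each copy. Initiation usually sets that density, through the cap-binding complex eIF4F, the structure of the 5′ leader, upstream open reading frames and terminal oligopyrimidine tracts. Slow elongation can also raise it.

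Footprint libraries held 1592316 to 2013968 counts and RNA libraries 5761921 to 7121802. The transcripts past the minimum carried between 97.1% and 97.3% of footprint counts and between 89.7% and 90.8% of RNA counts. Ratios below are log2 footprints minus RNA from a fit with the tumour as a block. Zero on this scale is set by the normalization and stands for the typical transcript, not for an absolute number of ribosomes. A transcript was called at an adjusted p under 0.05 (edgeR quasi-likelihood F test, Benjamini-Hochberg over all 8085). Each ± is a standard error of the fit over 3 tumours, in which the spread of a transcript is drawn toward that of the others. The stretch of each transcript that was counted is not given in the sources used here, and ratios of different genes are set side by side on that basis.

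Footprints and RNA differed for most transcripts. Of 8085 tested, 6471 (80.0%) were called, 3113 (38.5%) as ribosome-rich and 3358 (41.5%) as ribosome-poor. Calls with a difference of at least 2-fold numbered 1523 ribosome-rich (18.8%) and 1790 ribosome-poor (22.1%), and these shares are the background against which each gene group below is to be read. The median log2 ratio was -0.04, the quartiles were -0.89 and 0.77, and the 5th and 95th percentiles, -2.13 and 1.86, were 16-fold apart. Single transcripts varied little between tumours in comparison, with a median SD of the log2 ratio of 0.19 and a 95th percentile of 0.52. The ratio had the same sign in all 3 tumours for 6964 transcripts (86.1%). Because so many transcripts passed the test, being called says little about one gene, and sizes carry the description that follows.

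RNA levels predicted footprint levels only in part. Across transcripts the Spearman correlation of footprints with RNA of the same tumour was 0.599, 0.636 and 0.637, against 0.964 to 0.972 between footprint libraries and 0.977 to 0.981 between RNA libraries. Footprints also spread more widely, with an interquartile range of 2.15 on the log2 CPM scale against 1.85 for RNA. These are descriptions over 8085 transcripts that share libraries.

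**Figure D1:**
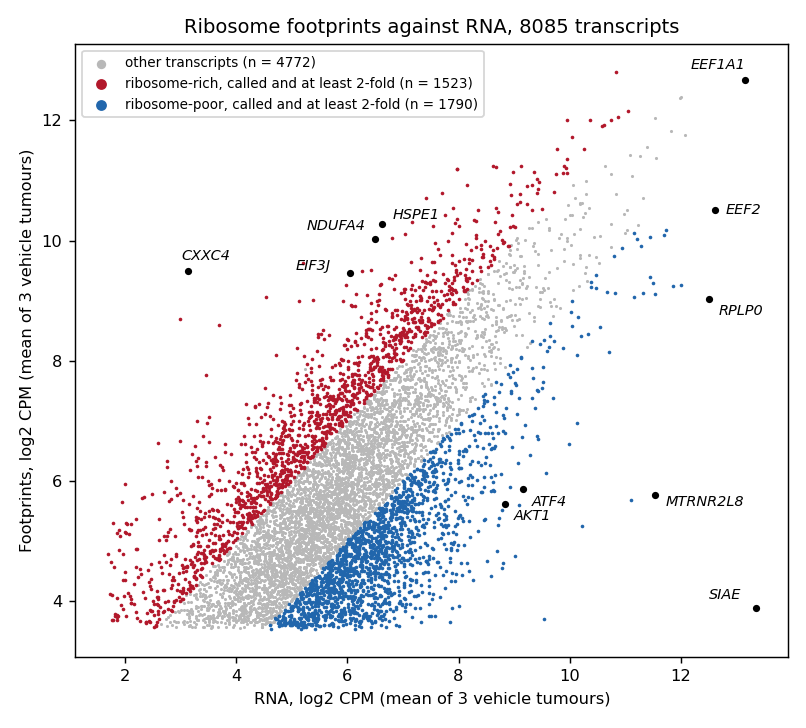
Footprint level against RNA level for the 8085 transcripts past the minimum, as log2 CPM averaged over the 3 vehicle tumours. Red marks the 1523 transcripts called ribosome-rich and blue the 1790 called ribosome-poor with at least a 2-fold difference, and CXXC4 lies far above the cloud while SIAE and MTRNR2L8 lie far below it.

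The replication-dependent histones, made in S phase to wrap newly copied DNA and whose mRNAs end in a stem-loop in place of a poly(A) tail, had the highest median of the gene families ranked by symbol below. Of 58 histone transcripts past the minimum, 55 were called ribosome-rich, 47 of them at least 2-fold, and 0 were called ribosome-poor. Their median log2 ratio was 1.88. The core histones were ordered by class, with medians of 3.11 for H4 (13 transcripts), 1.99 for H2B (15), 1.98 for H3 (10) and 1.01 for H2A (16, of which 9 were ribosome-rich by at least 2-fold, or 5 under scaling by library totals), and linker histone H1 stood at 0.55 (4). H2B and H3 did not differ in this order beyond the spread of their members. HIST1H4A had 970, 1015 and 655 footprints against 228, 235 and 282 RNA counts in tumours 1, 2 and 3. All 3 of its ratios lay high, at 3.55, 3.88 and 3.41, and the fitted value was 3.63 ± 0.09 (edgeR adjusted p = 5.32e-30). HIST3H2A sat at the other end, with a ratio of -0.04 ± 0.08 that was not called (edgeR adjusted p = 0.67), and its sign turned under some scalings. Histone genes of one class are close copies, so reads can be assigned to the wrong copy, and values of single genes are less certain than those of the class.

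Nuclear-encoded subunits of the respiratory chain, the mitochondrial complexes that oxidise NADH and succinate and make ATP, were mostly ribosome-rich. Of 80 subunits, 69 were called ribosome-rich and 7 ribosome-poor; 54 were ribosome-rich by at least 2-fold and 0 were ribosome-poor by that much. The median was 1.34, with 1.45 for complex IV, 1.43 for ATP synthase, 1.34 for complex I, 1.04 for complex III with cytochrome c and 0.79 for complex II. NDUFA4 is a small subunit now assigned to complex IV, but it was counted here with complex I. It gave 2024, 1796 and 1489 footprints from only 428, 573 and 622 RNA counts. Its ratios of 3.71, 3.43 and 3.46 were the highest of the group, and the fit gave 3.54 ± 0.09, or 11.6-fold above the typical transcript (edgeR adjusted p = 1.47e-30). COX7A2 and NDUFB6, both small subunits, followed at 2.96 ± 0.09 and 2.97 ± 0.10. The lowest was NDUFB10 of complex I, at -0.67 ± 0.08, and complex IV's COX7C stood at -0.40. Enzymes of the tricarboxylic acid cycle, which feed the chain, lay on the same side, with 17 of 18 called ribosome-rich, 7 of them by at least 2-fold (11 with no low-count filter), and a median of 0.80. Fumarase (FH) was the highest of these at 2.40 ± 0.08 and IDH2 the lowest at -0.37. This list of cycle enzymes was added after values had been seen.

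The proteasome degrades proteins tagged with ubiquitin. Of its 35 subunits past the minimum, 31 were called ribosome-rich and 2 ribosome-poor, 22 were ribosome-rich by at least 2-fold, and the median was 1.37. In the catalytic core, medians were 2.15 for alpha and 1.66 for beta ring subunits; in the cap that recognises ubiquitin, they were 1.31 for the ATPases and 0.88 for the non-ATPase subunits. PSMA1, an alpha ring subunit, had 708, 667 and 491 footprints and 223, 289 and 340 RNA counts. Its ratios were 3.13, 2.98 and 2.73, with a fitted value of 2.96 ± 0.09 (edgeR adjusted p = 3.16e-27). PSMD8, a non-ATPase subunit of the cap, was the lowest at -0.70 ± 0.09, with ratios of -0.44, -0.98 and -0.68. The 8 subunits of the CCT chaperonin, the chamber that folds actin and tubulin, were all ribosome-rich by at least 2-fold, from 1.01 for CCT3 to 2.71 for CCT2, and 5 of them passed 2-fold under scaling by library totals. The CCT list was added after values had been seen. Of 24 heat shock transcripts, 18 were ribosome-rich and 4 ribosome-poor, with a median of 1.22. Mitochondrial co-chaperonin HSPE1 led them with 2491, 2131 and 1695 footprints against 467, 579 and 738 RNA counts. Its ratio of 3.65 ± 0.09 was 12.6-fold above the typical transcript (edgeR adjusted p = 2.35e-30), and its partner HSPD1 stood at 2.06. The annotated readthrough HSPE1-MOB4 shares sequence with HSPE1 and its 4.42 is uncertain for that reason. Cytosolic HSPA8 was at 1.17 ± 0.08, while HSF1, the transcription factor that induces the family, was ribosome-poor at -2.44 ± 0.16.

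SR proteins and hnRNPs bind RNA and steer splicing. Of 39 transcripts for SR proteins, hnRNPs and CLK kinases, 34 were ribosome-rich and 2 ribosome-poor, and the median was 1.36. HNRNPH2 stood at 2.31 and SRSF5 at 2.09, both with SE 0.08. The top values of 4.30 and 3.55 belonged to HNRNPCL1 and HNRNPCL2, near-identical copies of HNRNPC, and are uncertain. HNRNPUL1 was the exception, with 373, 337 and 295 footprints against 2962, 3128 and 3210 RNA counts and a ratio of -1.39 ± 0.08 (edgeR adjusted p = 2.14e-18).

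**Figure D2:**
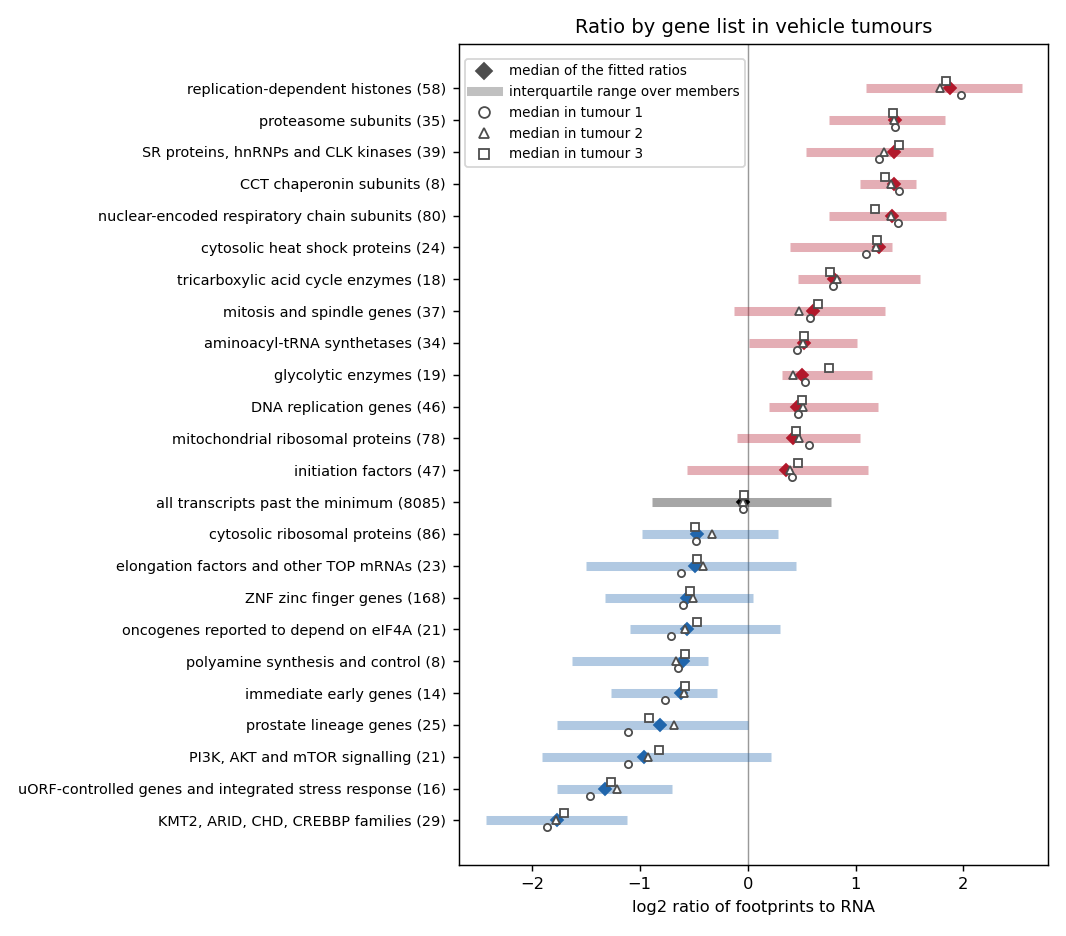
Log2 ratio of footprints to RNA by gene list in the 3 vehicle tumours, with the number of transcripts past the minimum in brackets. Diamonds are medians of the fitted ratios, bars are interquartile ranges over members and open symbols are medians in each tumour. Among the lists plotted, histones lie highest at 1.88 and the chromatin regulators, chosen after low values were seen, lowest at -1.77. The CCT chaperonin, tricarboxylic acid cycle and PI3K, AKT and mTOR lists were also chosen after values were seen.

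Cytosolic ribosomal proteins had a median below that of all transcripts. Of 86 past the minimum, 53 were called ribosome-poor, 20 of them by at least 2-fold, and 23 ribosome-rich, 9 by at least 2-fold; 10 were not called. The 2-fold counts depended on the zero of the scale, with 33 ribosome-poor and 4 ribosome-rich at a minimum of 50 counts and 13 and 11 with no low-count filter, and the background for ribosome-poor calls of that size is 22.1%. The median was -0.47, and from -0.74 to -0.16 under those 2 settings. It was -0.47 for the large and -0.56 for the small subunit. The members were far from uniform, with a span from -3.48 for RPLP0, the stalk protein that recruits elongation factors, to 2.07 for RPS29 among genes of the canonical subunits. The higher 3.32 belongs to RPL10L, a retrocopy of RPL10 with 25, 3 and 38 RNA counts. RPLP0 had 955, 946 and 753 footprints from 34151, 32762 and 37900 RNA counts. Its ratios of -3.68, -3.33 and -3.44 were the lowest of the list in every tumour, and the fitted -3.48 ± 0.09 was 11.2-fold below the typical transcript (edgeR adjusted p = 1.76e-29). RPL13A followed at -2.75 and RPS2 at -2.63. RPL41, the shortest ribosomal protein, stood at 0.39 ± 0.08, and RPL35A at 1.23 ± 0.08. Ribosomal protein genes have many processed pseudogenes, which can take or give reads.

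Most ribosomal protein mRNAs belong to the TOP class, whose cap is followed by a C and a run of pyrimidines that makes their translation depend on mTORC1. Their first transcribed bases are shown for genes at both ends of the range, from RefSeq (GRCh38.p14), as 10 bases before and 20 from the annotated start. Capitals mark a tract of a C followed by at least 4 pyrimidines within the first bases around the start, and a sequence without capitals has no such tract.
RPLP0, ratio -3.48, chr12:120201092-120201121, minus strand: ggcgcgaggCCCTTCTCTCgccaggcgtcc
RPL13A, ratio -2.75, chr19:49487598-49487627, plus strand: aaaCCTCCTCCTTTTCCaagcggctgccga
RPS6, ratio -1.20, chr9:19380217-19380246, minus strand: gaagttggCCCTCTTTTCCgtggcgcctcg
RPL41, ratio 0.39, chr12:56116623-56116652, plus strand: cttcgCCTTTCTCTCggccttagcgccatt
RPL35A, ratio 1.23, chr3:197950180-197950209, plus strand: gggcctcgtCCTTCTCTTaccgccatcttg
RPS29, ratio 2.07, chr14:49598691-49598720, minus strand: agcgcgcagctggcagcggtggttgtttct
EEF2, ratio -2.12, chr19:3985444-3985473, minus strand: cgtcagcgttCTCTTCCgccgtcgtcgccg
TPT1, ratio -2.43, chr13:45341164-45341193, minus strand: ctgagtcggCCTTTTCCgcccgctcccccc
EEF1A1, ratio -0.49, chr6:73521013-73521042, minus strand: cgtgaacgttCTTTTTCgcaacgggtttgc
EEF1G, ratio -2.19, chr11:62573872-62573901, minus strand: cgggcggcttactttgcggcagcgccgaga

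The tract thus stood at genes of very different ratio. In 49 of 69 ribosomal proteins with a window (71%), the annotated start was a C followed by 4 pyrimidines. The tract could also reach upstream of the start, as in RPLP0. The same held for 7.96% of the 6721 transcripts with a window and 4.07% of all 35116 RefSeq windows. Letting this C lie at any of the 3 bases before or the first 4 transcribed bases raised these shares to 79.7%, 20.1% and 13%. Only the transcribed strand was searched. With the wider rule, ribosomal proteins with a tract had a median ratio of -0.47 (55 transcripts) and those without one -0.15 (14). In the list of elongation factors and other TOP mRNAs the order was opposite, at -0.51 with a tract (14) and -0.85 without (2). Outside the ribosomal proteins the medians were -0.07 with and 0 without a tract over 6652 transcripts. These counts describe letters at annotated starts and not the caps used in the tumours.

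Elongation factors and other known TOP mRNAs also lay on both sides. Of 23 transcripts, 14 were ribosome-poor, 9 by at least 2-fold, and 7 ribosome-rich, 3 by at least 2-fold, with a median of -0.49. TPT1, a small growth-related protein, had 1059, 1047 and 715 footprints against 17475, 17799 and 17767 RNA counts and was the lowest at -2.43 ± 0.08 (edgeR adjusted p = 9.88e-26). EEF2, which moves the ribosome along by one codon, gave 2501, 2463 and 2317 footprints from 37093, 33189 and 42112 RNA counts. Its ratios were -2.41, -1.97 and -1.97, for a fitted -2.12 ± 0.09. EEF1A1, which brings aminoacyl-tRNA to the ribosome, lay much closer to the typical transcript at -0.49 ± 0.08, and PABPC1, the poly(A)-binding protein, stood at -1.70 ± 0.09. EIF3K was the highest of the list at 1.27 ± 0.08.

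Mitochondrial ribosomal proteins, which translate the genes of the mitochondrial genome, lay on the other side of the median. Of 78 past the minimum, 47 were ribosome-rich, 20 by at least 2-fold, and 18 ribosome-poor, 3 by at least 2-fold; the median was 0.42. With a minimum of 50 counts 13 were ribosome-rich by 2-fold or more, and with no filter 31. MRPS28 was the highest at 2.24 ± 0.13 and MRPS25 the lowest at -1.66 ± 0.15. Aminoacyl-tRNA synthetases, which charge tRNAs, had a median of 0.81 for 20 cytosolic members and 0.11 for 16 mitochondrial ones, the second turning to -0.01 under scaling by library totals and to -0.06 with a minimum of 50 counts. RARS, which charges arginine tRNA in the cytosol, was the highest at 1.73 ± 0.09, and AARS2, the mitochondrial alanine enzyme, the lowest at -1.57 ± 0.18.

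Initiation factors did not move as one block. Of 47 transcripts in the list, which also holds eIF2 kinases and the inhibitory 4E-BPs, 26 were ribosome-rich and 14 ribosome-poor, and the median was 0.36. Within eIF4F, the complex that binds the cap and unwinds the leader, the cap-binding subunit EIF4E had 413, 330 and 282 footprints against 391, 390 and 420 RNA counts. EIF4E was ribosome-rich at 1.58 ± 0.09, with ratios of 1.55, 1.54 and 1.63 (edgeR adjusted p = 2.2e-18). The scaffold EIF4G1 was ribosome-poor at -0.99 ± 0.08 (edgeR adjusted p = 2.86e-14), with ratios of -0.95, -1.16 and -0.86. The helicase paralogs lay between them: EIF4A1 at 0.48 ± 0.08, EIF4A3 of the exon junction complex at 0.90 ± 0.08, and EIF4A2 at 0.12 ± 0.10, which was not called (edgeR adjusted p = 0.271) and turned to -0.15 with a minimum of 50 counts. PDCD4, an inhibitor of eIF4A, stood at 1.32 ± 0.08. Of the proteins that hold EIF4E away from the scaffold, EIF4EBP2 had 74, 38 and 45 footprints against 1595, 1392 and 1535 RNA counts and a ratio of -3.06 ± 0.12 (edgeR adjusted p = 2.37e-24), and EIF4EBP1 stood at -1.97. EIF4EBP3 was ribosome-rich at 1.47. The helicase cofactor EIF4B, a TOP mRNA, was at -1.54. In the 13 subunits of eIF3, the median was 0.28 and the range ran from -1.48 for EIF3L to 3.41 for EIF3J. EIF3J, a loosely bound subunit, gave 1217, 1212 and 1113 footprints from 348, 404 and 434 RNA counts, at 3.28, 3.36 and 3.56 in the 3 tumours. The alpha subunit of eIF2, EIF2S1, whose phosphorylation slows initiation, was at 1.93.

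Upstream open reading frames are short frames in the leader that hold ribosomes back from the main one. Of 16 genes known for them and members of the integrated stress response past the minimum, 13 were ribosome-poor, 10 by at least 2-fold, and the median was -1.32. ATF4, the transcription factor of that response, had 111, 111 and 74 footprints against 3340, 3195 and 3629 RNA counts. Its ratios of -3.42, -3.05 and -3.39 gave a fitted -3.29 ± 0.10, which was 9.81-fold below the typical transcript (edgeR adjusted p = 1.3e-27). ATF5 stood at -2.49 ± 0.16. DDIT3 and PPP1R15A, other members of the response, did not reach the minimum. The 2 ribosome-rich members were ASNS, an amino acid enzyme that is a target of ATF4, at 2.54 ± 0.10, and EPRS at 1.22. ASNS and ATF4 lay on opposite sides of the median in every tumour. They were named as the highest and the lowest of this list, so that contrast was picked by rank.

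Polyamines are small cations needed for growth, and their synthesis is controlled at translation. Of 8 polyamine genes, 7 were ribosome-poor, 3 by at least 2-fold, with a median of -0.60. AMD1, which makes decarboxylated S-adenosylmethionine and carries an upstream frame, had 356, 296 and 207 footprints against 4768, 5108 and 5041 RNA counts and a ratio of -2.32 ± 0.08 (edgeR adjusted p = 4.96e-25). OAZ1, the antizyme made by a frameshift, was at -1.63 ± 0.08 and ODC1, the enzyme it targets, at -0.40 ± 0.08. SMS, spermine synthase, at -0.03 ± 0.11, was not called. Among the iron-responsive mRNAs, the ferritin chains FTH1 and FTL, whose leaders carry the element, were ribosome-poor at -2.55 ± 0.09 and -2.10 ± 0.09. FTH1 had 544, 439 and 444 footprints against 10736, 9411 and 9319 RNA counts. The transferrin receptor TFRC, which carries its elements behind the frame, was ribosome-rich at 0.76. Over the 9 transcripts of this list the median was -0.13, and it was 0.18 with no low-count filter. Selenoproteins, in which a stop codon is read as selenocysteine, ran from -3.61 ± 0.13 for SELENON to 1.92 ± 0.11 for SELENOF, with 8 ribosome-poor and 5 ribosome-rich of 17; the median was -0.21, and 0.10 with no low-count filter. GPX4, which detoxifies lipid peroxides, was at -1.98 ± 0.08.

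A list of large chromatin regulators, of the KMT2, ARID, CHD and CREBBP families and their partners, was drawn up after low values of such genes had been seen, so its direction was partly fixed by that choice. Of 29 past the minimum, 25 were ribosome-poor, 22 by at least 2-fold, and 0 were ribosome-rich, with a median of -1.77. ARID1A, a subunit of the BAF remodeller, had 188, 173 and 162 footprints against 4240, 4236 and 3751 RNA counts. The histone methyltransferase KMT2D had 71, 67 and 67 against 2253, 2028 and 1949. Their fitted ratios were -2.74 ± 0.10 and -3.12 ± 0.11, and KDM6B, a histone demethylase, stood at -3.32 ± 0.14. CHD4, CHD1, ARID2 and KDM6A were not called.

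Signalling genes of the PI3K, AKT and mTOR pathway, a list also added after other values were known, held 12 ribosome-poor and 5 ribosome-rich transcripts of 21, with a median of -0.96. AKT1, the kinase at its centre, had 106, 74 and 70 footprints against 2730, 2575 and 2799 RNA counts. Its ratio of -3.22 ± 0.10 was 9.31-fold below the typical transcript (edgeR adjusted p = 2.63e-27), and AKT2 stood at -1.91. PIK3R2, a regulatory subunit of PI3K, was at -3.43. FOXO1, a transcription factor that AKT restrains, was ribosome-rich at 1.76 ± 0.14 with 139, 122 and 112 footprints against 99, 128 and 170 RNA counts, and RHEB, the GTPase that activates mTORC1, stood at 1.11.

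Prostate lineage genes mark the tissue from which the line derives. Of 25 such genes, 18 were ribosome-poor, 12 by at least 2-fold, and 4 ribosome-rich, with a median of -0.81. FOXA1, a pioneer factor that opens chromatin, had 347, 308 and 267 footprints against 3865, 4013 and 4299 RNA counts. HOXB13, a homeobox factor, had 108, 94 and 85 against 1020, 1164 and 1253. Their ratios were -1.91 ± 0.08 (edgeR adjusted p = 1.38e-22) and -1.76 ± 0.10 (edgeR adjusted p = 2.37e-18), low in all 3 tumours. Among enzymes and surface proteins of the lineage, SLC45A3 was the lowest at -2.68 ± 0.12 and STEAP1 the highest at 1.29 ± 0.10. FOLH1, the prostate-specific membrane antigen, stood at 0.72 ± 0.13. KLK3, which encodes PSA, had 34, 18 and 37 footprints and 49, 87 and 133 RNA counts, and its 0.31 ± 0.24 was not called (edgeR adjusted p = 0.243); without tumour 2 it was 0.62 and called.

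Genes reported to depend on the helicase eIF4A spread on both sides. Of 21 such oncogenes, 14 were ribosome-poor, 7 by at least 2-fold, and 6 ribosome-rich, 4 by at least 2-fold, with a median of -0.56; with no low-count filter 3 were ribosome-poor by at least 2-fold. CCND1, cyclin D1, had 2149, 1851 and 1866 footprints against 19581, 19506 and 22128 RNA counts and a ratio of -1.56 ± 0.08 (edgeR adjusted p = 8.06e-20). MYC stood at -0.56 ± 0.08 with 329, 330 and 300 footprints. NOTCH1 was the lowest at -2.58 ± 0.17 on only 28, 16 and 31 footprints. MCL1, an inhibitor of apoptosis, was close to the typical transcript at 0.30 ± 0.08. HIF1A, the oxygen-regulated transcription factor, had 1241, 1173 and 1006 footprints against 1169, 1560 and 1601 RNA counts and was ribosome-rich at 1.49 ± 0.08 (edgeR adjusted p = 2.62e-20). CARM1, an arginine methyltransferase, was the highest of the list at 1.56 ± 0.10.

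Of 168 ZNF zinc finger genes past the minimum, 97 were ribosome-poor, 50 by at least 2-fold, and 28 ribosome-rich, with a median of -0.56; 502 symbols of this kind were in the tables, so most had too few counts. ZNF664 was the lowest at -4.27 ± 0.11 with 55, 41 and 41 footprints from 3453, 2642 and 3102 RNA counts, and ZNF626 the highest at 2.05 ± 0.31. Among 14 immediate early genes, 10 were ribosome-poor and 1 ribosome-rich, with a median of -0.62. JUND stood at -2.54 ± 0.10 and JUN at -1.49 ± 0.12, while the kinase SGK1 was at 1.49 ± 0.28 with unequal ratios of 1.71, 0.53 and 2.13.

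Of 46 DNA replication genes, 32 were ribosome-rich and 6 ribosome-poor, with a median of 0.46. RPA3, a subunit of the single-strand binding protein, was the highest at 2.54 ± 0.10 and ORC4, of the origin recognition complex, the lowest at -3.17 ± 0.12. Of 37 mitosis and spindle genes, 22 were ribosome-rich and 9 ribosome-poor, with a median of 0.61. CDK1, the mitotic kinase, had 848, 714 and 601 footprints against 366, 528 and 470 RNA counts and a ratio of 2.49 ± 0.09 (edgeR adjusted p = 1.7e-25). MKI67, the proliferation marker, lay at -1.43 ± 0.08, and FOXM1, a transcription factor that drives mitotic genes, had only 82, 64 and 50 footprints from 2824, 2416 and 2091 RNA counts. FOXM1's ratio of -3.45 ± 0.11 was 10.9-fold below the typical transcript (edgeR adjusted p = 2.76e-27). The kinase CDK1 and the factor FOXM1 lay on opposite sides of the median in all 3 tumours. CDK1 was named as the highest of the mitosis list. FOXM1 is not in that list and was named for its place among the lowest ratios of all transcripts. The rule for those lowest ratios also asks for the same sign in every tumour, so this contrast was picked by rank.

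Glycolysis splits glucose into pyruvate. Of 19 glycolytic transcripts, 15 were ribosome-rich, 6 by at least 2-fold, and 1 ribosome-poor, with a median of 0.50. PGK1, which makes the first ATP of the pathway, gave 1984, 1891 and 2370 footprints from 1071, 1294 and 2108 RNA counts, and its ratios of 2.37, 2.33 and 2.38 scarcely varied. LDHA stood at 2.15, PKM at 1.01 and PFKL at -0.38 ± 0.08. In cholesterol and fatty acid synthesis, 12 of 28 were ribosome-rich and 10 ribosome-poor, and the median of 0.11 changed sign under scaling by library totals. These counts were near the shares over all transcripts, 38.5% ribosome-rich and 41.5% ribosome-poor. The sterol enzymes MSMO1 and HMGCS1 stood at 2.16 and 1.86. SCAP, which escorts the SREBP factors, was at -2.67, and SREBF2, one of those factors, at -2.04. Endoplasmic reticulum chaperones had a median of 0.01, with 10 ribosome-rich and 7 ribosome-poor of 24, and ran from -1.90 for EDEM1 to 1.64 for PDIA3. Their ribosome-rich share was also near that over all transcripts. HSPA5, the main chaperone of that compartment, was at 1.37 ± 0.08.

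**Figure D3:**
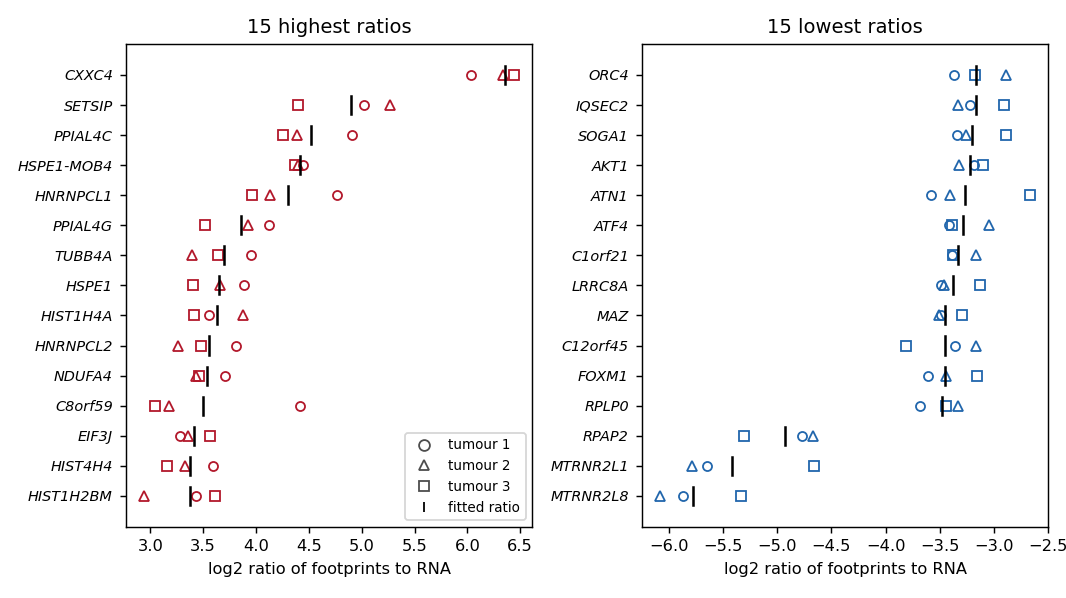
Log2 ratio of footprints to RNA in each vehicle tumour for the 15 transcripts with the highest and the 15 with the lowest ratios among called transcripts that average 50 or more counts in each assay. Open symbols are single tumours and black bars the fitted ratios; CXXC4 stands alone at 6.36, and MTRNR2L8, MTRNR2L1 and RPAP2 lie at -4.66 or lower in all 3 tumours.

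At the upper extreme, CXXC4 on chr4:104468308-104494894 (GRCh38.p14), an inhibitor of Wnt signalling with a CXXC zinc finger, had 1259, 1248 and 1118 footprints from only 51, 50 and 56 RNA counts. Its ratios of 6.03, 6.34 and 6.44 gave a fitted 6.36 ± 0.11, or 82-fold above the typical transcript (edgeR adjusted p = 1.52e-35). Of the other transcripts among the 15 highest, SETSIP, PPIAL4C, PPIAL4G, HNRNPCL1 and HNRNPCL2 are near-identical copies of SET, PPIA and HNRNPC, TUBB4A belongs to the similar beta-tubulins, and 3 are histones. Their values, from 3.37 to 4.90, may therefore hold footprints of the parent genes. C8orf59 stood at 3.50 ± 0.16, with a higher value in tumour 1 (4.42) than in the other two (3.18 and 3.04). HSPE1, NDUFA4 and EIF3J, described above, complete the set with HSPE1-MOB4.

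At the lower extreme, MTRNR2L8 and MTRNR2L1, nuclear copies of mitochondrial 16S ribosomal RNA, stood at -5.78 ± 0.12 and -5.42 ± 0.13. RNA from the mitochondrial gene can be counted on them. RPAP2, a phosphatase of RNA polymerase II, had 73, 64 and 56 footprints against 5625, 5692 and 10432 RNA counts and a ratio of -4.93 ± 0.11 (edgeR adjusted p = 2.37e-31). The others among the 15 lowest, MAZ, C12orf45, LRRC8A, C1orf21, ATN1, SOGA1, IQSEC2 and ORC4 with RPLP0, FOXM1, ATF4 and AKT1, lay between -3.48 and -3.17. LRRC8A, a subunit of the volume-regulated anion channel, had 187, 160 and 149 footprints against 5900, 6110 and 6067 RNA counts. The lowest ratio of all, -9.48, belonged to SIAE, a sialic acid esterase on chr11:124633113-124676303. It had 26, 24 and 24 footprints against 56490, 51180 and 83504 RNA counts. SIAE fell outside the rule for named genes, which asks for 50 counts, and is given because of its value. Whether the RNA counted on SIAE, RPAP2 and the other lowest transcripts is all their own mRNA was not tested.

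Beyond the lists, all families with a shared symbol stem and at least 10 transcripts past the minimum were ranked, 89 in all, by a rule written after values had been seen. HIST came first with a median of 1.88, followed by NDUFB at 1.54, NDUFA at 1.42, HSPA at 1.29 and EXOSC, the RNA exosome, at 1.06. At the other end stood MYO (unconventional myosins and related symbols) at -1.20, KIAA (large uncharacterised cDNAs) at -1.15, MAPK at -0.97, DCAF (substrate receptors of a ubiquitin ligase) at -0.93, CEP (centrosomal proteins) at -0.82 and ARHGEF (activators of small GTPases) at -0.81. Families at the low end were mixed inside. MYO9B stood at -2.44 and MYO6, which moves toward the minus end of actin, at 0.98. Among the MAPK genes, 9 of 11 were ribosome-poor and MAPK8 was at 0.46. Complexes whose subunits were followed as lists showed the same unevenness, with the COP9 signalosome from -0.88 for GPS1 to 3.29 for COPS9 and the RNA exosome from -1.83 for EXOSC6 to 1.87 for EXOSC8. In Mediator, 12 of 29 subunits were ribosome-poor and 11 ribosome-rich, close to the shares over all transcripts (41.5% and 38.5%).

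The GC content of the first transcribed bases moved with the ratio. For 6721 transcripts with a RefSeq start window, the Spearman correlation of the ratio with the GC content of the first 50 transcribed bases was -0.241, and it was -0.229 for the 250 bases before the start. The median ratio was 0.28, 0.20, 0.06, -0.04 and -0.54 in 5 groups of 1102 to 1594 transcripts from the lowest to the highest GC content, so the step lay mainly in the last group, from 74% GC upward. In that group, 36.1% were ribosome-poor by at least 2-fold and 8.88% ribosome-rich, against 16.1% and 26.7% in the group of lowest GC content. Each of the 3 tumours gave the same order of groups. GC content correlated at -0.11 with footprint levels and at 0.0864 with RNA levels. The length of the gene on the chromosome, introns included, correlated with the ratio at -0.0842 over 8043 matched transcripts. The length of the mRNA itself was not set against the ratio. These correlations are across transcripts that share libraries and base composition, and the part of library preparation in them was not tested.

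**Figure D4:**
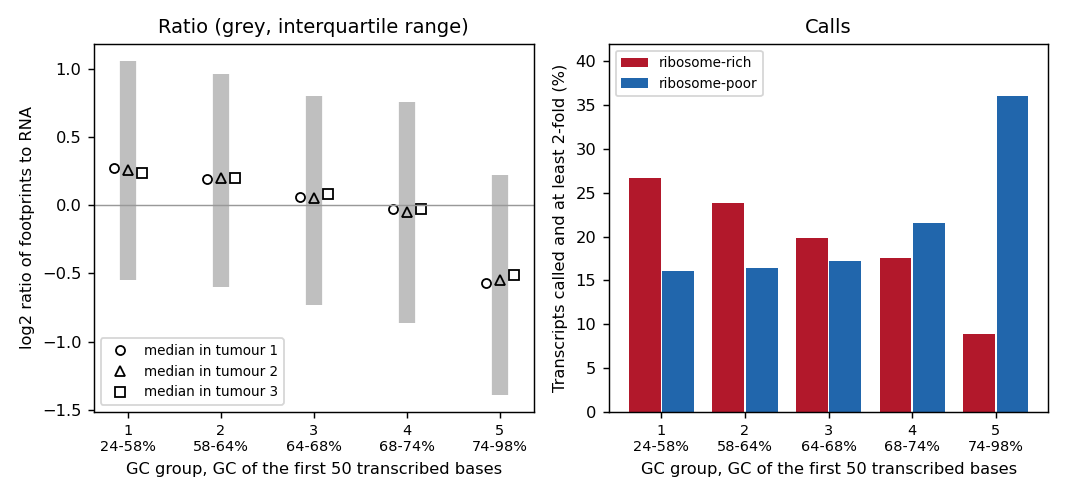
Ratio of footprints to RNA in 5 groups of rising GC content in the first 50 transcribed bases, for 6721 transcripts with a RefSeq start. The left panel gives the interquartile range of the fitted log2 ratio with the median in each of the 3 tumours, and the right panel the percentage called with at least a 2-fold difference; ribosome-poor calls reach 36.1% in the group of highest GC content.

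Markers of the tumour cells and of host cells differed in level. All 14 prostate epithelial markers passed the minimum, and their summed level was 4920 to 6410 CPM in footprints and 5200 to 6070 in RNA. KRT8 and KRT18, keratins of luminal epithelium, stood at 0.37 and 0.71. Fibroblast and matrix markers (7 of 18 past the minimum) summed to 581 to 1010 CPM in footprints and 285 to 473 in RNA, and 6 of those 7 were ribosome-rich, among them COL1A2 at 1.55 ± 0.12. Red cell markers (3 of 10 past the minimum) summed to 157 to 433 CPM in footprints and 22.8 to 46 in RNA, and myeloid markers (2 of 14, LYZ and AIF1) to 85.7 to 392 and 17 to 58.8, with 2 of the 14 at 0 in all 6 libraries. The fitted ratios of these blood cell transcripts ran from 2.51 for HBA1 to 3.35 for AIF1. Muscle and adipocyte markers (7 of 13) summed to 276 to 712 CPM in footprints and 57.8 to 373 in RNA. Endothelial markers had at most 7.47 CPM in footprints and 20.2 in RNA, with 0 of 10 past the minimum, and 3 of 10 neuroendocrine markers passed it. Reads were assigned to human transcripts, and how far mouse RNA of the host enters the stromal and blood cell values was not tested. Fewer cells of a type and less RNA per cell cannot be told apart in bulk tumours.

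The transcripts whose ratio varied most between tumours, among those with a mean of at least 200 counts in both assays, were ACTA2, UGT2B4, COMMD4, PABPC3, VIM and VGF. ACTA2, the smooth muscle actin of myofibroblasts, had 484, 254 and 432 footprints against 162, 340 and 165 RNA counts. Tumour 2 was low in footprints and high in RNA at the same time, and the ratios were 3.04, 1.36 and 3.57. With that spread the fitted 2.65 ± 0.63 was not called (edgeR adjusted p = 0.0507), although each fit without one tumour called it, at 2.19 to 3.33. VIM, an intermediate filament of mesenchymal cells, had ratios of 0.16, 1.02 and 0.36, again with tumour 2 apart; its call (0.49 ± 0.10) was lost without the replicate block. Among the muscle markers, CKM came mostly from tumour 2, with RNA counts of 20, 412 and 3 and footprints of 2, 63 and 3, and its ratio of -0.87 ± 0.28 rested on that tumour: without it the value was -0.49 and not called. Of VGF (0.29 ± 0.11), the call was lost without tumour 3, where the value was 0.05.

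Transcripts outside the minimum were not tested. Of the 19037, 4004 reached 20 counts only in RNA, 102 only in footprints and 6846 in neither. PLCG2, a phospholipase of immune cells, had 145491, 125581 and 151263 RNA counts, or 2.53%, 2.03% and 2.12% of each RNA library, but only 14, 5 and 5 footprints. SULT1B1 had 2773, 2679 and 4941 RNA counts and 0 footprints in each library. The origin of the RNA counted on PLCG2 and SULT1B1 was not tested. In the opposite direction, the homeobox gene NKX2-3 had 2868, 3156 and 2975 footprints with 1, 5 and 2 RNA counts. The PPIA copies PPIAL4A, PPIAL4D, PPIAL4E and PPIAL4F and the histone HIST1H2BI showed the same pattern. Close to the minimum, the 599 transcripts just inside it, at 20 to 25 counts in the lower assay, had a median log2 ratio of mean CPM values of -0.88 and the 704 just outside, at 15 to 20, of -1.04. From the 5th to the 95th percentile, the first set ran from -2.75 to 1.88 and the second from -2.93 to 1.37.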

How the data were processed

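Footprint and RNA libraries of 3 vehicle tumours, read through their titles, were analysed as deposited counts per transcript, whole numbers summed by the authors. Per the submitters' processing notes hg38 was the build, and Bowtie2 2.3.5, cutadapt 2.3, UMI-tools and DESeq2 are named. Per the labels' protocols lysis used cycloheximide and RNA was made with a stranded total RNA kit. Not given in the sources used here are the counting tool, the stretch counted and the strand setting. All columns were mapped to samples.

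The 6 libraries were normalized together (TMM) and fitted with edgeR 4.0.16 (R 4.3.3) as footprints against RNA with the tumour as a block, on transcripts with a mean of at least 20 counts in both assays. The protocol takes both assays from one lysate, and deviations from the group means correlated at 0.176, 0.484 and 0.422 for the same number and at -0.392 to 0.0152 otherwise. Per-tumour ratios use log2 CPM with a prior count of 2. Scripts were tested on simulated data. Names and coordinates came from RefSeq GRCh38.p14 (8043 transcripts matched), and 8 symbols had more than 1 transcript.

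Named genes were the 15 highest and 15 lowest ratios with at least 50 counts and one sign in all tumours, the ends of each list, 42 preset genes (40 past the minimum) and the 6 most variable; other list members and 10 added lists were chosen after values were seen. Members and lists were chosen with earlier results of these data known. Precision is limited by 3 tumours and by the footprint depth. The p-values and each ± rest on the spread between these samples, drawn for each transcript toward that of the others. They can therefore differ from a transcript's own SD over tumours. CKM, with an SD of 1.52, had ± 0.28, and PGK1, with an SD of 0.02, had ± 0.08. Some items are not reported here.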

Additional observations from a re-analysis of the deposited data

How the results depend on the processing

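No transcript called as reported was called in the opposite direction under any of the 11 alternatives tried. Calls that were lost are not covered by this, whatever their sign. With no low-count filter 800 calls were lost, and with the 1.5-fold test 2293. Tested against a 1.5-fold difference (glmTreat), calls numbered 4178, with 1984 ribosome-rich and 2194 ribosome-poor. With no low-count filter, 14486 transcripts were tested and 5174 were ribosome-poor. Leaving out one tumour gave 6124 to 6186 calls, DESeq2's Wald test 5841, and the fit without the replicate block 6143 (2939 ribosome-rich, 3204 ribosome-poor). The zero of the scale moved by -0.12 with library totals alone, by -0.27 with a minimum of 50 counts and by 0.31 with no filter, so ratios near zero have no fixed sign. SMS was 0.01 with TMM within each assay, 0.02 with DESeq2 size factors or DESeq2, 0.28 with no filter and 0.08 without tumour 2. HIST3H2A was 0.01 with DESeq2 size factors or DESeq2 and 0.27 with no filter. BGN was -0.04 with library totals and -0.14 to 0.29 with one tumour left out, EIF4A2 -0.15 with 50 counts, and SYP 0.18 with no filter. List medians changed sign in 11 of 308 list and setting pairs, and the ribosome-rich share of calls ran from 43.6% to 50.3% (48.1% as reported). With 50 counts, 12 ZNF genes were ribosome-poor by at least 2-fold, since fewer were tested. The footprint libraries, with fewer counts, limit the precision of ribosome-poor values.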
